A study of Mus musculus with 3 samples.

Results

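Chemokines are small secreted proteins that direct cell movement, and they act through receptors of the Ccr and Cxcr families on the cells that follow them. The genes described here are those whose symbols begin with Ccl, Cxcl, Ccr or Cxcr followed by a digit and that had at least 10 UMIs in all deposited cells; UMIs are molecular tags, and 1 UMI stands for 1 captured RNA molecule. Of 28001 measured features, 59 carry such a symbol and 36 met the count, 26 ligands and 10 receptors. The cells came from the nucleus accumbens of mice, in 3 samples of 1 group: strain Thy1::ChR2, FLiCRE labelling while ChR2 was stimulated with light in the nucleus accumbens, and tissue cut out of coronal slices of 400 um, as labelled. In this strain the Thy1 promoter drives channelrhodopsin (ChR2), a light-gated ion channel, in a subset of neurons, and FLiCRE is a tool that marks neurons whose calcium rises during light. Every sample was labelled and stimulated, the labels give neither age nor sex nor the number of animals, and the comparisons below are therefore between classes of cells within the same libraries.

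Chemokine families differ in what they do. Ccl2, Ccl7 and Ccl12 call monocytes through Ccr2, Ccl3 and Ccl5 act through Ccr1, Cxcl9 and Cxcl10 are induced by interferon and act on T cells through Cxcr3, and Cxcl1, Cxcl2 and Cxcl5 call neutrophils through Cxcr2. Cxcl12 acts through Cxcr4 and is made constitutively by vascular and stromal cells. In brain tissue, microglia are the resident phagocytes, and macrophages, dendritic cells and T cells sit mostly at its borders or enter it during inflammation.

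The deposited matrix held 11625 cells in 3 libraries, told apart by the suffix of their barcodes. Nothing ties a suffix to a numbered sample of the labels, so library 1, 2 and 3 are only names, and the libraries shared 13 (1 with 2), 7 (1 with 3) and 22 (2 with 3) barcode sequences. After filtering, 9923 cells were used (2306, 5783 and 1834 in libraries 1 to 3), with medians of 985.5, 2084 and 2674 UMIs. Each cell was given a class when it showed at least 3 of 10 markers of that class and at least 2 times as many as of any other class; no chemokine or receptor is among the markers. Nothing states that the libraries came from separate animals, so the p-values measure only the spread between these samples, and fewer cells of a kind cannot be told apart from less RNA per cell where a class is itself a mixture.

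The gates gave 4615 neurons, 1247 oligodendrocytes, 874 astrocytes, 440 endothelial cells, 302 mural cells, 301 microglia, 276 macrophages, 131 oligodendrocyte precursors, 54 T cells and 40 fibroblasts. The median cell of each of these classes carried 4 to 7 of its own 10 markers and 1 or 2 of the best other list; 2 of the 10 T cell markers were not among the features. NK cells numbered 5, and no cell met the gate for B cells or for neutrophils. A further 193 cells carried markers of both microglia and macrophages and 1444 met no gate; both were left out of the tests. T cells and fibroblasts had at least 10 cells only in libraries 1 and 2, so their tests rest on 2 libraries, and their library 3 values come from 5 and 6 cells.

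Levels are CPM, the usual scaling of a gene's UMIs in a class and library by the total UMIs of that class and library. Because this protocol reads 1 end of each RNA, CPM can be set side by side between genes without a correction for length. Classes were compared with edgeR's quasi-likelihood test on UMIs summed per library, blocked by library, and p-values were adjusted by Benjamini-Hochberg over all genes tested; a gene was called at an adjusted p under 0.05, and "edgeR adjusted p" below means that value. All comparisons of a class with the rest reuse the same cells as reference, so they are not independent of each other. RNA set free from broken cells can put UMIs of other classes into a droplet, and its amount was not estimated here. Oligodendrocytes, which had 0 members called higher in these same tests, serve as a comparison for shares of cells. They are not a measured background.

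Of the 26 ligands, 8 were highest in macrophages, 5 in microglia, 4 in fibroblasts, 3 in astrocytes, 2 in mural cells, 2 in neurons, 1 in T cells and 1 in oligodendrocyte precursors, by the mean CPM over libraries. Among the receptors, 4 were highest in macrophages, 2 in T cells and 1 each in fibroblasts, endothelial cells and neurons. The unclassed cells held a large share of some ligands: 39.9% of the UMIs of Ccl2, 39.4% of Ccl7, 35.9% of Ccl5, 33.1% of Ccl8 and 28.9% of Cxcl10. The same held for some receptors, with 44.4% of the UMIs of Ccr9, 42.4% of Cxcr6 and 38.5% of Ccr7. Several genes rested on few cells, with 76.5% of the UMIs of Ccl24, 63.3% of Cxcl13 and 59.0% of Ccl19 in the 5 cells that held most. Ccl27a (1.33%), Ccl25 (3.13%) and Cxcl14 (4.31%) lay at the other end.

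**Figure D1:**
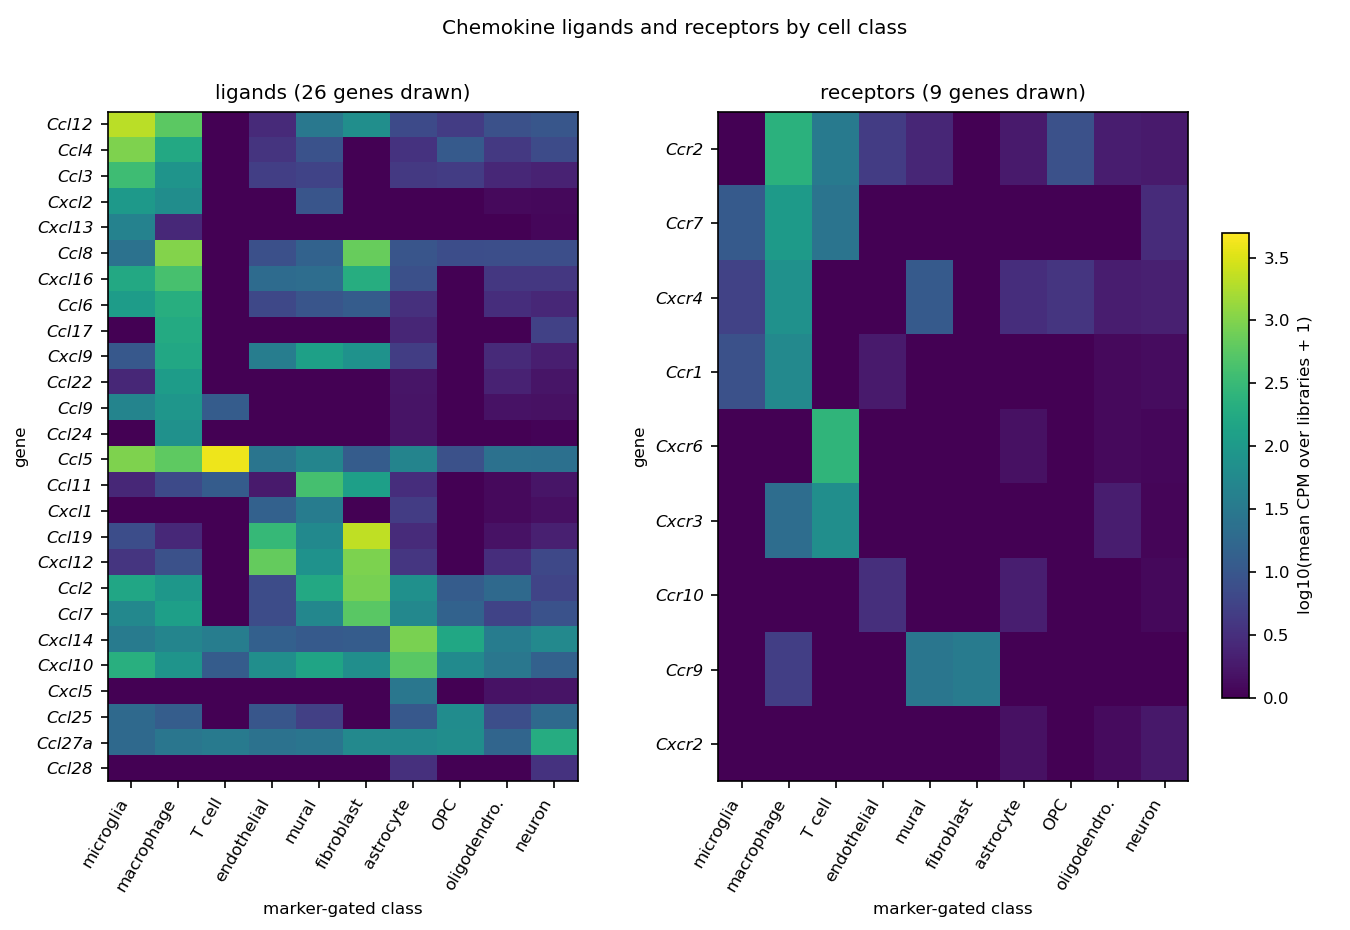
Mean CPM over libraries, as log10(mean CPM + 1) in colour, of the 26 ligands (left) and of receptors (right) in 10 marker-gated classes; libraries with under 10 cells of a class are left out of its mean. Myeloid classes hold most of the bright cells, fibroblasts and endothelial cells share Cxcl12 and Ccl19, and Ccl27a is brightest in neurons.

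Microglia carried Ccl12 together with Ccl4, Ccl3 and Ccl5. Ccl12, a ligand of Ccr2 (chromosome 11, chr11:82101845-82103400, plus strand in GRCm38), had 1775, 1808 and 2581 CPM in libraries 1 to 3. In all 3 libraries this was the highest level of Ccl12 in any tested class, and macrophages followed with 364, 680.3 and 699.6 CPM. The mean in microglia was 2055 ± 456 (SD, n = 3), against 23.1 CPM in all other classed cells (log2 fold change 6.95 with an SE of 0.36, edgeR adjusted p = 3.26e-07). A Ccl12 UMI was found in 53.4% ± 1.43 (SD, n = 3) of microglia, with a median of 971 UMIs per cell, and in 1.58% of oligodendrocytes, with a median of 1890. Thinned to 1000 UMIs per cell, the shares were 48.2% and 0.582%; 155 microglia and 279 oligodendrocytes were too shallow to be thinned.

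Ccl4 and Ccl3, which attract monocytes and lymphocytes, were found in part in the same cells. Ccl4 had 1131, 921 and 874 CPM in microglia (log2 fold change 7.09 with an SE of 0.30, edgeR adjusted p = 2.13e-07). Ccl3 had 472, 427 and 175 CPM (log2 fold change 6.84 with an SE of 0.40, edgeR adjusted p = 7.82e-07), with library 3 lowest. Of 301 microglia, 49 had a Ccl3 UMI, 59 a Ccl4 UMI and 33 both. Ccl5 had 1345, 672 and 891 CPM (log2 fold change 4.10 with an SE of 0.29, edgeR adjusted p = 2.04e-06) and was highest in library 1. T cells stood above it in every library, and macrophages did in library 2.

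In all, 12 of the 19 members that passed the low-count filter were higher in microglia than in the rest, against 14.4% of all genes tested, and 3 were lower, against 16.9%. The median log2 fold change of the 19 was 3.86, and that of all genes was -0.30. Besides those above, the higher members included Cxcl13, which calls B cells (7.55, SE 0.92, adjusted p = 4.97e-05), the neutrophil chemokine Cxcl2 (5.73, SE 0.75, adjusted p = 0.000149), the Ccr1 ligands Ccl9 (4.65, SE 0.74, adjusted p = 0.000591) and Ccl6 (4.20, SE 0.54, adjusted p = 0.000132), the membrane-bound Cxcl16 (3.86, SE 0.44, adjusted p = 4.49e-05), Ccl2 (2.97, SE 0.38, adjusted p = 0.000108) and Cxcl10 (1.74, SE 0.32, adjusted p = 0.00154), each as a log2 fold change with the edgeR adjusted p after the SE. Cxcl13 rested on 15 UMIs in 5 microglia, with 2, 3 and 10 UMIs in libraries 1 to 3. Lower were Cxcl12 (-3.48), Cxcl14 (-2.27) and Ccl27a (-2.10). Not called were Ccl7 (1.60, SE 0.58, adjusted p = 0.0533), Cxcl9 (1.10), Ccl25 (0.93) and Ccl8 (0.15). Without library 1, 11 members were called higher, beside 885 of all 12416 genes. Without library 2 or without library 3 none was, and no gene at all was called (0 of 10437 and 0 of 10566). In those fits the adjusted p of Ccl12, Ccl3, Ccl4 and Ccl5 was at most 0.0575. Their log2 fold changes were at least 6.46, 6.24, 6.51 and 3.58 under every setting tried. Cxcl10 was not called without the 5 microglia of highest Cxcl10 counts, an alternative chosen after seeing the data.

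Macrophages had the widest set: 19 of the 24 members that passed the filter were higher than in all other classed cells, against 14.9% of all genes, and 0 were lower, against 17.3%; 22 of the 24 had an unadjusted p under 0.05. Their median log2 fold change was 4.57, with -0.30 over all genes. All 6 receptors that passed the filter were among the 19. Ccr2, the receptor of monocytes and of cells derived from them, had 52.9, 369.7 and 258 CPM, lowest in library 1, and 227 ± 161 (SD, n = 3) on average (log2 fold change 8.40 with an SE of 0.70, edgeR adjusted p = 1.77e-05). No Ccr2 UMI was found in 301 microglia, so the level in macrophages was at least 31.7-fold higher, taking 3 counts over all libraries as the floor.

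Other receptors of macrophages were Ccr1, which binds Ccl3 and Ccl5, Ccr7, which guides dendritic cells to lymph nodes, and Cxcr4, the receptor of Cxcl12. Ccr1 had 13.2, 88.7 and 61.4 CPM (log2 fold change 7.41 with an SE of 0.52, edgeR adjusted p = 1.15e-05). Ccr7 was even across libraries, at 92.6, 88.7 and 123 CPM (log2 fold change 6.96 with an SE of 0.53, edgeR adjusted p = 1.92e-05). Of its 42 UMIs there, 38 lay in 20 cells that met a gate for migratory dendritic cells, described below. Unclassed cells, outside the test, held 38.5% of all Ccr7 UMIs. Cxcr4 had 126, 78.9 and 12.3 CPM and was lowest in library 3, where it was a single UMI (log2 fold change 6.29 with an SE of 0.55, edgeR adjusted p = 3.85e-05). Cxcr3 was also called (log2 fold change 5.63 with an SE of 1.14, edgeR adjusted p = 0.0036), on 8 UMIs in 7 cells, and was not called without library 1 or without library 3 (adjusted p up to 0.147).

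Among the ligands of macrophages, Ccl8 reached the highest mean. It had 52.9, 719.7 and 2369 CPM in libraries 1 to 3, so library 1 was far below the others, and 247 of its 347 UMIs were in 5 cells (log2 fold change 6.42 with an SE of 0.93, edgeR adjusted p = 0.000763). Without those 5 cells the log2 fold change was 4.89 and the call held. Cxcl16, the membrane-bound ligand of Cxcr6, was even, with 469.6, 434 and 356 CPM (log2 fold change 6.11 with an SE of 0.35, edgeR adjusted p = 8.04e-06), and a UMI was found in 37.9% ± 3.47 (SD, n = 3) of macrophages. Ccl6 had 79.4, 242 and 307 CPM (5.94 on the log2 scale) and Ccl9 39.7, 173 and 49.1 CPM (6.41); both bind Ccr1. Cxcl9 had 126, 78.9 and 295 CPM (log2 fold change 5.03 with an SE of 0.46, edgeR adjusted p = 5.06e-05).

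Ligands of Ccr4 and Ccr3 were also found there. Ccl22 fell into few cells, with 271, 49.3 and 12.3 CPM and library 1 highest (log2 fold change 7.29 with an SE of 0.65, edgeR adjusted p = 3.59e-05). Ccl17 had 344, 197 and 0 CPM in macrophages and Ccl24, an eotaxin, 0, 182 and 36.8. Both were at 0 in microglia, so the level pooled over macrophages was at least 28.1-fold and 12.2-fold higher. These bounds rest on few cells: 1 cell held 35 of the 92 Ccl17 UMIs and 1 held 32 of the 40 Ccl24 UMIs. Neither gene was in the test of macrophages against the rest after the low-count filter. The remaining calls included Ccl12 (3.96), Cxcl2 (5.34), Ccl5 (3.46), Ccl3 (3.33), Ccl4 (3.15), Ccl7 (2.96) and Ccl2 (2.18), with edgeR adjusted p between 2.6e-05 and 0.00636. Not called were Cxcl10 (0.32), Ccl25 (0.00), Cxcl14 (-1.33, SE 0.51, adjusted p = 0.0701), Ccl27a (-1.43, SE 0.51, adjusted p = 0.0586) and Cxcl12 (-1.92, SE 0.75, adjusted p = 0.0715). Without library 1, 18 members were called higher, without library 3, 13, and without library 2 none. Over all genes these fits called 642 of 12459, 466 of 10474 and 0 of 10472 higher. Ccl2 was not called without any 1 library or without the 5 cells of highest Ccl2 counts (adjusted p up to 0.176).

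A gate for migratory dendritic cells (at least 3 of 10 markers such as Fscn1 and Il4i1) picked 20 of the 276 macrophage-class cells, 10, 7 and 3 in libraries 1 to 3. These 20 cells held 38 of the 42 Ccr7 UMIs, a level of 842 CPM (exact Poisson interval 596 to 1156, counting error only), with a UMI in 13 cells; the other 256 macrophages had 10.2 CPM (2.79 to 26.2). They also held 40 of the 52 Ccl22 UMIs (887 CPM against 30.7), 53 of the 92 Ccl17 UMIs (1175 against 99.9) and 163 of the 262 Ccl5 UMIs (3613 against 254). Ccl8, Ccl24 and Ccl2 had 0 UMIs in the 20 cells, and 347, 40 and 43 in the others, from 30, 6 and 25 cells. The share of gated cells with a UMI was 0% for each (exact interval 0 to 16.8%). Outside the gate it was 11.7% (8.05 to 16.3%), 2.34% (0.865 to 5.03%) and 9.77% (6.42 to 14.1%). These intervals overlap, so no difference in the share of cells is shown. Ccr2 had 1 UMI in the gate and 103 outside it. These values were summed over libraries and no test was run. Library 1 decides the size for Ccl17: in libraries 1 to 3 the gate had 2368, 218 and 0 CPM and the other macrophages 15.4, 196 and 0, and 35 of its 53 UMIs were in 1 cell. For Ccl22 the gate had 1468, 580.3 and 97.9 CPM, 31 of its 40 UMIs in library 1, and the others 76.9, 10.6 and 0. Outside the gate, 37 of the 39 Ccl17 UMIs came from library 2, so in that library most Ccl17 lay outside the gate. Of 276 macrophages, 15 had a Ccl17 UMI, 14 a Ccl22 UMI and 9 both.

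Compared directly, macrophages and microglia differed in which of these ligands and receptors they carried. Of 12 members tested, 3 were higher in macrophages, against 7.42% of the 1860 genes tested, and 3 were lower, against 9.35%. Ccr7 (log2 fold change 3.64 with an SE of 0.71, edgeR adjusted p = 0.00306), Cxcl9 (log2 fold change 3.30 with an SE of 0.74, edgeR adjusted p = 0.0114) and Cxcl16 (log2 fold change 1.41 with an SE of 0.23, edgeR adjusted p = 0.0019) were higher in macrophages in all 3 libraries. For Ccr7, 38 of the 42 UMIs of the macrophage class lay in the 20 cells of the dendritic gate. The other macrophages had 30.8, 0 and 0 CPM of Ccr7 in libraries 1 to 3. Ccl4 (log2 fold change -2.48 with an SE of 0.26, edgeR adjusted p = 9.58e-05) and Ccl12 (log2 fold change -1.74 with an SE of 0.18, edgeR adjusted p = 0.000101) were higher in microglia in all 3. Ccl3 (-2.34, SE 0.72, adjusted p = 0.103), Ccl2 (-0.72, SE 0.31, adjusted p = 0.15), Ccl5 (-0.53, SE 0.36, adjusted p = 0.404), Cxcl10 (-1.05, SE 0.75, adjusted p = 0.436), Ccl6 (1.25, SE 0.68, adjusted p = 0.297) and Cxcl2 (-0.11, SE 1.04, adjusted p = 0.966) were not called. Without library 2, none was higher in macrophages and 1 was higher in microglia, beside 15 and 15 of all 1388 genes. Without library 1 the counts were 5 and 4, beside 155 and 207 of all 2666 genes. Ccl12 was called without each library in turn. Cxcl9 was not called without the low-count filter or without any 1 library (adjusted p up to 0.223). The 193 cells with markers of both classes had 1225, 1100.2 and 2007 CPM of Ccl12 and 365, 362 and 257 CPM of Cxcl16. They were in neither arm of this comparison, yet held 41.6% of all Cxcl2 UMIs, 33.9% of Ccl4 and 26.9% of Ccl6. For Ccl12 and Ccl3 their share was 23.8% each.

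**Figure D2:**
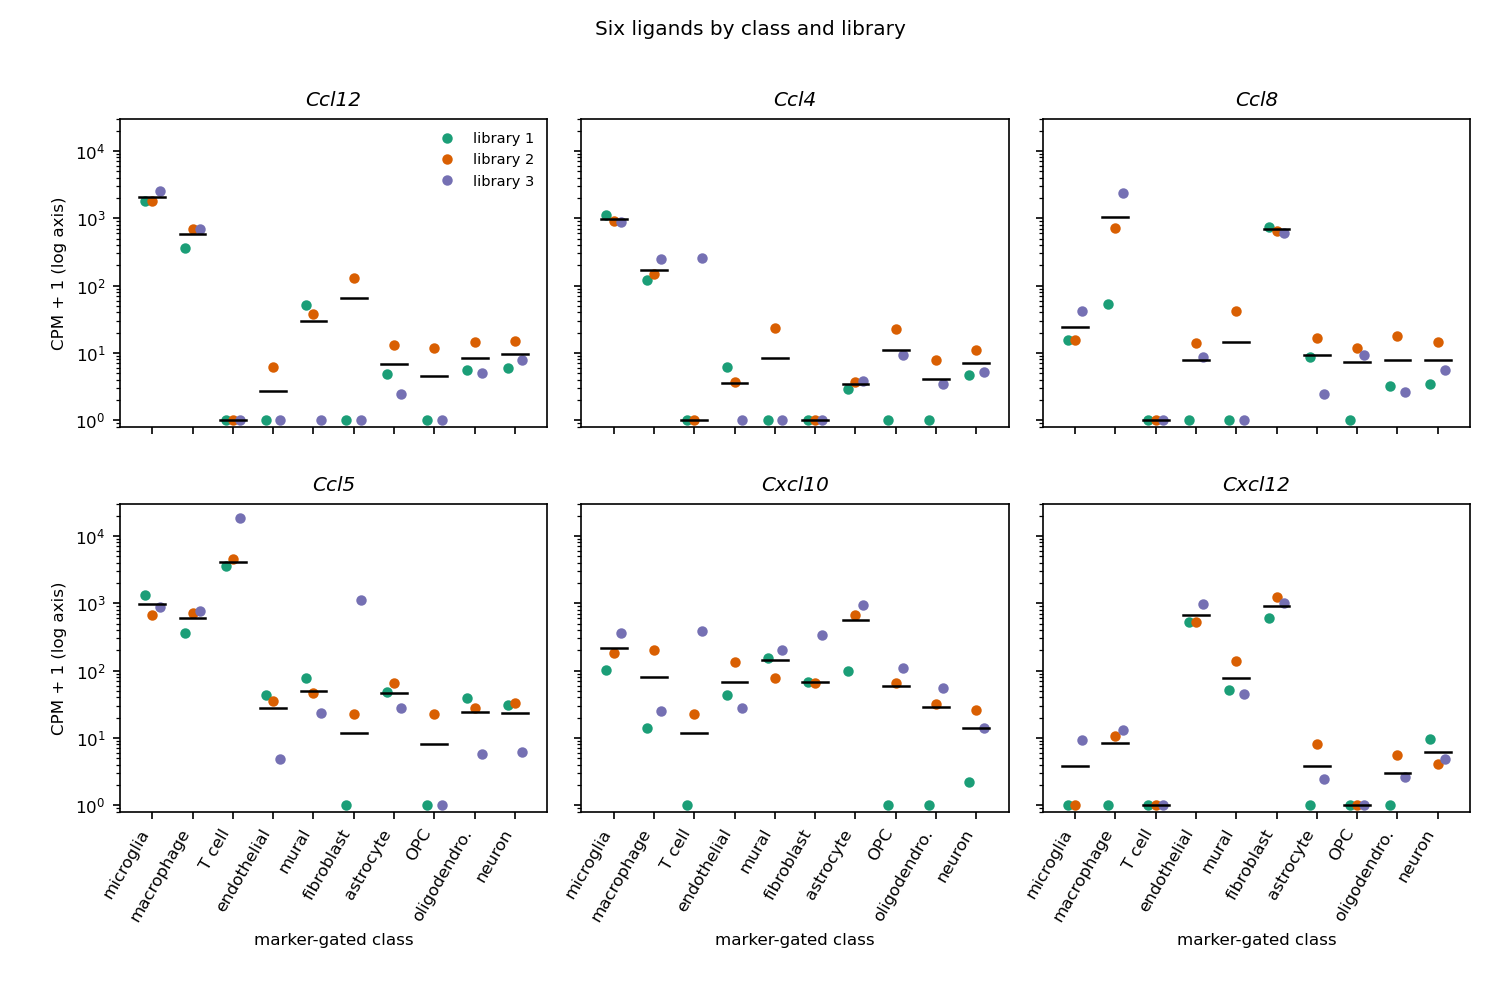
CPM + 1 on a log axis of 6 ligands (Ccl12, Ccl4, Ccl8, Ccl5, Cxcl10 and Cxcl12) in each class; points are libraries, the black line is the mean over libraries with at least 10 cells, and points of libraries with fewer cells are drawn too. Ccl12 and Ccl4 stand highest in microglia in every library, Ccl8 spreads from 52.9 to 2369 CPM in macrophages, and Ccl5 is highest in T cells.

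T cells carried Ccl5, a product of activated and memory T cells, and Cxcr6, a receptor of tissue-resident T cells. Ccl5 had 3564 and 4617 CPM in libraries 1 and 2 and 18349.8 CPM in the 5 cells of library 3, which did not enter the test. It was the 1 member of the 15 tested that was higher in T cells (log2 fold change 5.22 with an SE of 0.66, edgeR adjusted p = 0.0156, 2 libraries), against 1.09% of all genes; none was lower, against 0.169%, where 3 of the 15 members had an unadjusted p under 0.05. A Ccl5 UMI was found in 26 of 54 T cells, and 261 of the 425 UMIs were in 5 of them. The call was lost when cells with high doublet scores were kept (adjusted p = 0.0586). Cxcr6 had 0, 523 and 898 CPM, 31 UMIs in 15 of 54 cells, and 0 UMIs in microglia, macrophages, endothelial cells, mural cells and fibroblasts. It was not among the 15 members tested in T cells, after the low-count filter. Its mean over libraries 1 and 2 was 261 ± 370 CPM, with 0 in the 16 T cells of library 1. Unclassed cells held 42.4% of all Cxcr6 UMIs. Cxcr3, the receptor of Cxcl9 and Cxcl10, had 6 UMIs in 5 T cells, all in library 2. Of the 26 T cells with Ccl5 and the 15 with Cxcr6, 6 had both.

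Among the cells of the vessel wall, endothelial cells and fibroblasts carried Cxcl12, and mural cells carried Ccl11. Cxcl12 (chr6:117168535-117181367, plus strand) had 530.3, 523 and 977 CPM in endothelial cells, highest in library 3 (log2 fold change 6.48 with an SE of 0.35, edgeR adjusted p = 5.46e-07). A UMI was found in 54.6% ± 16.7 (SD, n = 3) of them and in 0.592% of oligodendrocytes; after thinning, the shares were 41.1% and 0.383%. Ccl19, a ligand of Ccr7, had 803, 97.8 and 0 CPM in endothelial cells, and 148 of its 190 UMIs were in 5 cells (log2 fold change 4.83 with an SE of 0.44, edgeR adjusted p = 1.82e-05). Its level was far higher in library 1 than in library 2 and was 0 in library 3, so endothelial cells were above the rest (12.8 CPM on average) in 2 of 3 libraries. The call held without the 5 cells. Without library 1, which held 238 of the 329 Ccl19 UMIs of all used cells, Ccl19 was not in the endothelial test after the low-count filter. Near-identical copies of Ccl19 in the mouse genome had 0 UMIs in the feature table, and how reads shared between copies were counted is not given in the sources used here, so its level is uncertain.

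Endothelial cells had 3 of 15 tested members higher, against 19.6% of all genes, and 6 lower, against 26.7%. The third was Cxcl9 (log2 fold change 2.17 with an SE of 0.59, edgeR adjusted p = 0.0127), with 68.3, 37.0 and 3.86 CPM; it was not called without library 1, without library 2 or without the 5 cells of highest counts (log2 fold change 0.01). Lower were Ccl12 (-4.57), Ccl4 (-3.46), Cxcl14 (-3.36), Ccl27a (-2.08), Ccl5 (-1.70) and Ccl8 (-1.52); the last was not called by DESeq2, without the library block or without any 1 library. Without library 1, 1 member, Cxcl12, was called higher, beside 1589 of all 12474 genes.

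Ccl11, the eotaxin that calls eosinophils through Ccr3, had the largest fold change among members called higher in a class, within the error of Ccr2 in macrophages (8.40, SE 0.70). Mural cells had 204, 942 and 51.9 CPM, with library 2 highest, from 8, 208 and 7 UMIs, and all other classed cells 1.32 on average (log2 fold change 8.53 with an SE of 0.47, edgeR adjusted p = 8.65e-08). It was found in 47 of 302 mural cells, and 109 of the 223 UMIs were in 5 of them; without these the log2 fold change was 7.59, and without library 2 the adjusted p was 0.0629. In mural cells 5 of 18 tested members were higher, against 11.7% of all genes, and 2 were lower, Cxcl14 (-3.36) and Ccl27a (-1.61), against 16.4%. The neutrophil chemokine Cxcl1 had 25.5, 63.4 and 14.8 CPM (log2 fold change 5.02 with an SE of 0.57, edgeR adjusted p = 5.05e-05). Cxcl9 had 153, 36.2 and 185 CPM, all 39 UMIs in 5 cells (log2 fold change 3.99 with an SE of 0.52, edgeR adjusted p = 0.000147). Ccl2 had 127, 344 and 44.5 CPM (log2 fold change 2.75 with an SE of 0.50, edgeR adjusted p = 0.00167), and 72 of its 87 UMIs were in 5 cells. This Ccl2 call was lost without any 1 library, with only cells of at least 1000 UMIs and without the 5 cells (log2 fold change 0.58, adjusted p = 0.541).

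Ccl19 in mural cells (log2 fold change 2.24 with an SE of 0.76, edgeR adjusted p = 0.0438) was called on 19 UMIs, lost its call under 7 of 12 alternatives, and its log2 fold change was -0.32 without library 2. With only cells of at least 1000 UMIs 2 members were called higher in mural cells, without the 5 cells of highest counts 1, without library 2 none and without library 3, 1. Over all genes these fits called 489 of 12326, 1132 of 10409, 27 of 10502 and 173 of 10591 higher. Cxcl12 in mural cells, with 50.9, 136 and 44.5 CPM, was not called (log2 fold change 1.43 with an SE of 0.53, edgeR adjusted p = 0.0657).

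Fibroblasts were few, and their values rest on 12 and 22 cells in libraries 1 and 2 and 6 in library 3. Ccl8 was the 1 of 17 tested members called higher, with 732, 654 and 601 CPM (log2 fold change 4.92 with an SE of 0.47, edgeR adjusted p = 0.0379, 2 libraries), against 0.355% of all genes; none was lower, against 0% of all genes. With the default prior of the package 5 members were called higher, with DESeq2 6, and without the 5 cells of highest counts or with doublets kept none. Over all genes 36 were higher in the main fit, 170 with that prior, 237 with DESeq2, 35 without the 5 cells and 28 with doublets kept. Of the 17 members 9 had an unadjusted p under 0.05. The next by size were Ccl19 (4.86, SE 0.60, adjusted p = 0.069), Cxcl12 (4.51, SE 0.90, adjusted p = 0.201), Ccl2 (4.28, SE 0.58, adjusted p = 0.0843) and Ccl7 (3.93, SE 0.52, adjusted p = 0.075), none of them called. Ccl19 had 4259.6, 153 and 134 CPM, Ccl2 1331, 414 and 4475 and Ccl7 932, 196 and 6746, so each had 1 library far above the others, library 1 for Ccl19 and library 3 for the monocyte chemokines. Cxcl12 was more even, with 599, 1242 and 1002 CPM, and was found in 28 of 40 fibroblasts.

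Astrocytes carried Cxcl14, a constitutively made chemokine of unsettled receptor, Cxcl10 and Cxcl5. Cxcl14 (chr13:56288643-56296551, minus strand) had 926, 1039 and 744 CPM in astrocytes, far above any other class in each library, and 903 ± 149 (SD, n = 3) on average (log2 fold change 4.93 with an SE of 0.44, edgeR adjusted p = 1.79e-05). A UMI was found in 75.8% ± 8.75 (SD, n = 3) of astrocytes, with a median depth of 2070.5 UMIs, and in 7.11% ± 5.80 (SD, n = 3) of oligodendrocytes; thinned, the shares were 56.8% and 2.35%. Oligodendrocyte precursors, next by the mean, had 73.6, 249 and 150.1 CPM in 25, 67 and 39 cells.

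Cxcl10 was carried by a minority of astrocytes, 13.4% ± 8.59 (SD, n = 3), against 3.72% of oligodendrocytes. It had 96.7, 658 and 932 CPM, with library 1 several-fold below the others (log2 fold change 4.47 with an SE of 0.35, edgeR adjusted p = 8.14e-06). In libraries 2 and 3 astrocytes had the highest level of any class; in library 1 mural cells (153 CPM) and microglia (100.2) stood above them. The summed level of 16 interferon response genes in astrocytes was 1189, 3135 and 2188 CPM, also lowest in library 1 but highest in library 2, where Cxcl10 was not; its part in the result was not tested. The 5 cells that held most had 543 of 1447 UMIs, and without them the call held (3.86). Cxcl5 had 23.2, 55.5 and 7.17 CPM from 80 UMIs in 32 astrocytes, with 46 of them in 5 cells (log2 fold change 7.07 with an SE of 0.51, edgeR adjusted p = 1.18e-06).

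In all, 5 of 15 tested members were higher in astrocytes, against 24.9% of all genes, and 4 were lower, against 25.6%: Ccl4 (-3.23), Cxcl12 (-3.06), Ccl12 (-2.97) and Ccl27a (-0.64). The other 2 higher members were Ccl2 (1.79, SE 0.63, adjusted p = 0.0382) and Ccl7 (1.49, SE 0.51, adjusted p = 0.0326), with 5.80, 137 and 67.4 and 13.5, 121 and 21.5 CPM. Both were lost by DESeq2, without the low-count filter, without library 2 or library 3 and without the 5 cells of highest counts. Of the 27 astrocytes with a Ccl2 UMI, 19 also had a Cxcl10 UMI, and 117 of 874 astrocytes had Cxcl10. Of those 117, 101 had Cxcl14, as did 665 of all 874.

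**Figure D3:**
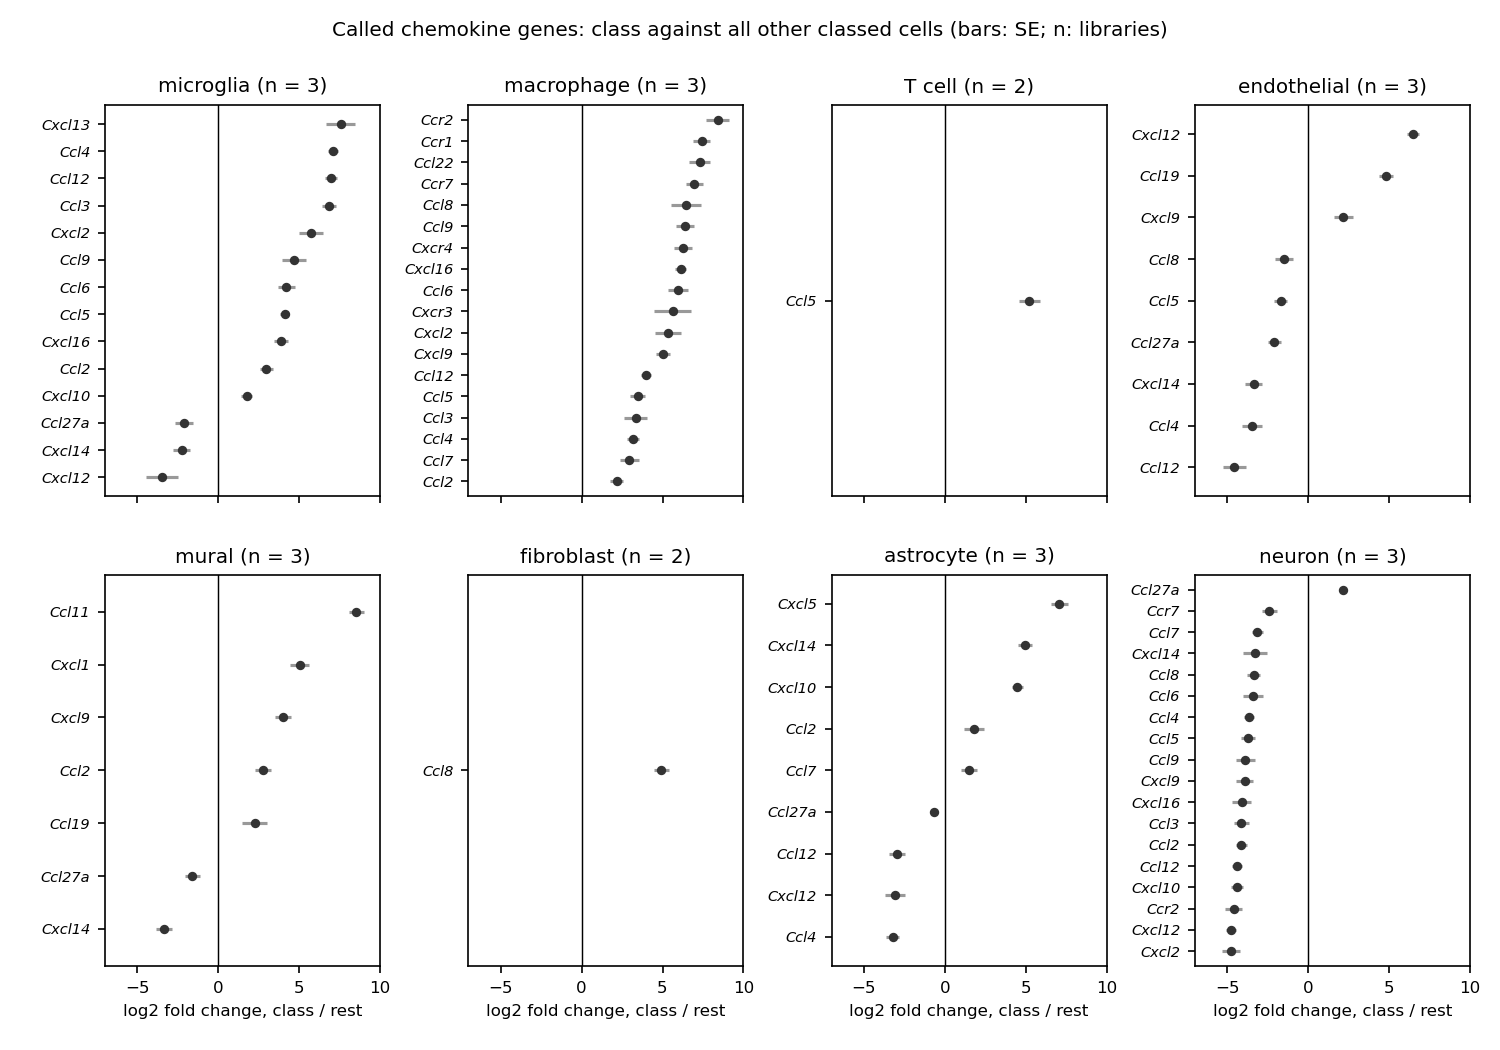
Log2 fold change of called genes in a class against all other classed cells, with bars for the SE; n is the number of libraries. Ccl11 in mural cells (8.53) and Ccr2 in macrophages (8.40) lie farthest to the right, and all genes drawn for neurons except Ccl27a lie to the left of 0.

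Neurons carried Ccl27a and had low levels of nearly every other member. Ccl27a, a ligand of Ccr10 best known from skin (chr4:41769467-41774247, minus strand), had 219, 194 and 164 CPM in neurons and 32.7 CPM in all other classed cells on average (log2 fold change 2.14 with an SE of 0.21, edgeR adjusted p = 6.63e-05). A UMI was found in 1685 of 4615 neurons, 33.3% ± 8.59 (SD, n = 3), against 3.76% of oligodendrocytes; thinned, the shares were 15.9% and 1.15%. It was called under all 13 alternatives. The level was similar in size over kinds of neurons: 233, 183 and 164 CPM in D1 neurons (direct-pathway spiny neurons), 198, 221 and 169 in D2 neurons (indirect pathway) and 259, 181 and 186 in glutamatergic neurons. The Ccl27a locus overlaps another gene, Il11ra1, and has near-identical copies, and how shared reads were counted is not given in the sources used here, so the gene behind these UMIs is uncertain.

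Of 21 tested members 1 was higher in neurons, against 31% of all genes, and 18 were lower, against 34.6%. The lower ones ranged from Ccr7 (-2.39) to Cxcl2 (-4.77) and included Ccl12, Ccl3, Ccl4, Ccl5 and Cxcl16; all but Cxcl14 held their call without each library in turn. Ccl25, which calls T cells to the gut through Ccr9, had 17.5, 16.5 and 17.9 CPM in neurons and was not called (log2 fold change 0.39 with an SE of 0.26, edgeR adjusted p = 0.223); its highest class was oligodendrocyte precursors, with 36.8, 75.6 and 75.0 CPM from 17 UMIs. Ccl17 (log2 fold change -1.53 with an SE of 0.80, edgeR adjusted p = 0.129) was found in 54 neurons, with 4.99, 4.43 and 3.25 CPM, and in 0 of 1247 oligodendrocytes. Ccl28, the other ligand of Ccr10, had 25 UMIs in 25 neurons, 2.49, 1.30 and 3.58 CPM.

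Cxcl14 in neurons was lower than in the rest (log2 fold change -3.28 with an SE of 0.72, edgeR adjusted p = 0.0051; without library 2 the adjusted p was 0.152). The level was 4.99, 123 and 35.5 CPM in libraries 1 to 3, and that of oligodendrocytes was 4.50, 68.0 and 30.5, so the order of the libraries was the same in both classes and only library 2 stood more than 1.5 times above it. A UMI was found in 0.646%, 16.7% and 6.80% of neurons and in 0.494%, 11.3% and 9.52% of oligodendrocytes. The signal was uneven: of 589 neurons with a UMI, 392 had 1, 153 had 2 to 4 and 44 had 5 or more. The 44 cells, 39 in library 2 and 5 in library 3, held 456 of 1247 UMIs, up to 49 in 1 cell. Of 1247 oligodendrocytes 3 had 5 or more, and the highest had 10. Without the 44 cells, neurons had 4.99, 78.7 and 23.7 CPM. Leaving out cells by their own Cxcl14 count cannot raise this level. The 3 oligodendrocytes with 5 or more UMIs were kept, so this does not show that the other neurons match oligodendrocytes.

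The 44 neurons with 5 or more Cxcl14 UMIs were mainly D1 neurons (18) and neurons without a sub-gate (19); 3 were cholinergic, of only 4 cholinergic neurons found, 2 were D2, 1 glutamatergic and 1 a Sst-Npy interneuron. As a share, that is 18 of 1854 D1 and 2 of 1121 D2 neurons. Summed markers of astrocytes, the class with the highest Cxcl14, were at 218 CPM in neurons with 0 Cxcl14 UMIs, 224 with 1, 229 with 2 to 4 and 154 with 5 or more, and at 5754 to 5978 CPM in astrocytes. In library 2, where most of these cells were, the marker level was 234 CPM in neurons both with and without a Cxcl14 UMI, with 9 of 10 markers above 0.

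Between kinds of neurons, Cxcl14 was lower in D2 neurons than in all other neurons. D2 neurons had 4.31, 36.8 and 34.6 CPM and D1 neurons 4.31, 142 and 35.2, so the gap was in library 2 (log2 fold change -1.50 with an SE of 0.27, edgeR adjusted p = 0.00103 for D2). It was the 1 of 7 tested members lower in D2 neurons, against 5.45% of all genes, and none was higher, against 3.71%. Without library 2 the log2 fold change was -0.04, without library 1 -1.52, by DESeq2 -1.03 and without the library block -1.17, all 4 short of the threshold. Oligodendrocytes had 68.0 and 30.5 CPM in libraries 2 and 3. In D1 neurons 0 of 7 members were called higher or lower, against 2.99% and 5.3% of all genes, and 1 (Cxcl14, 0.29, SE 0.13, adjusted p = 0.228) had an unadjusted p under 0.05.

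In glutamatergic neurons 0 of 3 members were called (8.13% of all genes were higher and 5.65% lower), and Cxcl14 had an unadjusted p under 0.05 (-1.01, SE 0.36, adjusted p = 0.0921). In Pvalb interneurons, fast-spiking inhibitory cells, Cxcl12 was the 1 of 4 tested members called higher (log2 fold change 2.90 with an SE of 0.55, edgeR adjusted p = 0.0123), against 3.48% of all genes, and none was lower, against 4.15%. It rested on 6 UMIs in 58 cells, 1, 3 and 2 in libraries 1 to 3, and was lost without the low-count filter and without any 1 library. Sst-Npy and Vip-Cck interneurons were too few to be tested.

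**Figure D4:**
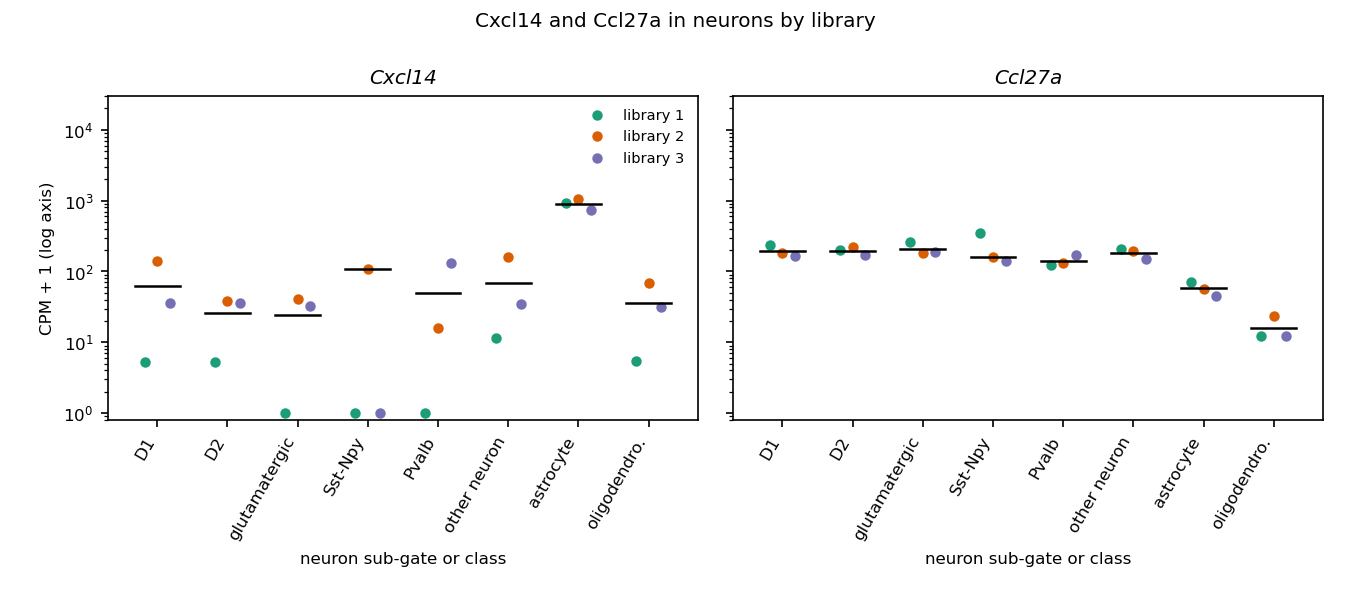
CPM + 1 on a log axis of Cxcl14 and Ccl27a in kinds of neurons, with astrocytes and oligodendrocytes beside them; points are libraries and black lines are means over libraries with at least 10 cells. Ccl27a lies at similar levels in all kinds of neurons, and Cxcl14 in neurons follows the libraries of oligodendrocytes, from 4.99 CPM in library 1 to 123 in library 2.

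Neurons with a Cxcl14 UMI were compared with neurons without one in libraries 2 and 3, where both groups had at least 10 cells. Of 11053 genes 10 were higher (0.0905%) and 0 were lower (0%), and 682 had an unadjusted p under 0.05; of the 10 members tested none was called and none had an unadjusted p under 0.05. Among those raised in both libraries were Vip, a neuropeptide (4.63 ± 0.44), Slc10a4, a vesicle protein of cholinergic and monoaminergic neurons (3.82 ± 0.31), Prok2, prokineticin (3.81 ± 0.39), the endopeptidase Ecel1 (3.21 ± 0.27), the transcription factor Zic1 (3.20 ± 0.24), Tnnt1 (2.53 ± 0.27) and Sipa1l2 (1.87 ± 0.22), as log2 fold change ± SE with edgeR adjusted p between 0.00549 and 0.0325. The choline transporter Slc5a7, a marker in the cholinergic sub-gate, was called too (4.89) but was higher in 1 of 2 libraries.

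Most of these genes came from a few cells. Of 84 Slc10a4 UMIs in neurons with Cxcl14, 76 lay in 9 of the 44 neurons with 5 or more Cxcl14 UMIs (390.0 CPM, against 2.61 in neurons with none), and the same 44 held 104 of 116 Ecel1, 75 of 93 Zic1 and all but 6 of 265 Slc5a7 UMIs. Vip came from 1 cell with 12 UMIs, 1 with 21 and 2 with 1 each. Prok2, Tnnt1 and Sipa1l2 were spread more widely: in neurons with 2 to 4 Cxcl14 UMIs, Prok2 was in 21 of 153, at 57.1 CPM against 1.44, Tnnt1 in 27, at 99.5 against 6.56, and Sipa1l2 in 34, at 93.1 against 12.6. The count of called genes moved with the method: 49 when the other group was matched cell by cell on UMIs, 104 with the default prior, 6 by DESeq2 and 0 without the library block, where 195 had an unadjusted p under 0.05. Of the 10 called genes, 8 were also called after matching, with the same sign.

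Oligodendrocytes had 0 of 15 tested members higher, against 26.3% of all genes, and 11 lower, against 30.8%; 13 of the 15 had an unadjusted p under 0.05, and DESeq2 also called 0 higher. The strongest were Cxcl12 (-3.52, SE 0.59, adjusted p = 0.00138), Ccl12 (-2.65, SE 0.46, adjusted p = 0.00189), Ccl27a (-2.56, SE 0.25, adjusted p = 0.000156) and Ccl4 (-2.52, SE 0.55, adjusted p = 0.00543). Also lower were Cxcl16 (-2.10), Ccl3 (-2.02), Cxcl14 (-1.90), Ccl5 (-1.87), Ccl7 (-1.84) and Cxcl10 (-1.31). Ccl3, Ccl4, Ccl7, Cxcl10 and Cxcl14 lost their call without library 3. Some UMIs of ligands that led in other classes were also found there: Ccl12 had 4.50, 13.6 and 4.02 CPM and Ccl5 38.3, 26.4 and 4.82.

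**Figure D5:**
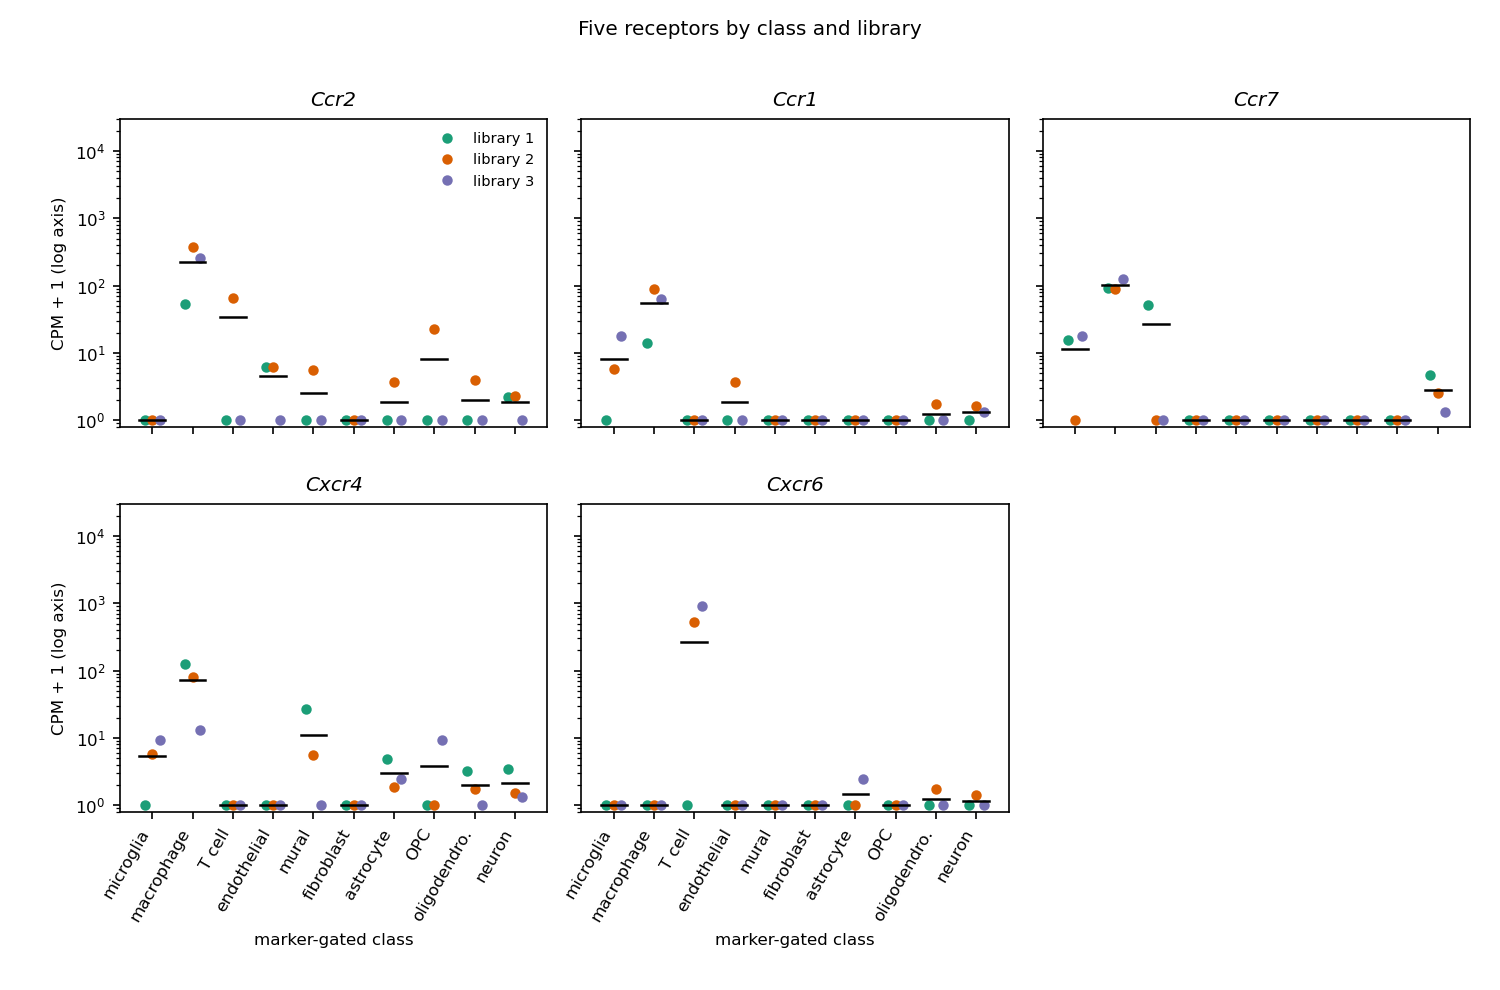
CPM + 1 on a log axis of 5 receptors in each class; points are libraries and black lines are means over libraries with at least 10 cells. Ccr2, Ccr1, Ccr7 and Cxcr4 are highest in macrophages, and Cxcr6 stands at 523 and 898 CPM in T cells of libraries 2 and 3. It had no UMI in T cells of library 1, and library 3 had only 5 T cells. Of the 42 Ccr7 UMIs in macrophages, 38 lay in the 20 cells of the dendritic gate.

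Ligands and receptors were set side by side through 32 pairs taken from general knowledge of the family. In 21 pairs both genes were members. In 4 of them the class with the highest ligand was also the class with the highest receptor, and in 17 it was another. The 17 include pairs with Cxcr2, Ccr10 and Ccr9, which had 13, 10 and 20 UMIs in all, too few to place a leading class. No such share was computed for other pairs of genes, so these counts are a description only. Among the 4 pairs with 1 shared leading class were Ccl6 and Ccl9 with Ccr1 in macrophages. Different leading classes were found for Ccl12 (microglia), Ccl2 and Ccl7 (fibroblasts) with Ccr2 (macrophages), for Cxcl10 (astrocytes) and Cxcl9 (macrophages) with Cxcr3 (T cells), for Cxcl16 (macrophages) with Cxcr6 (T cells), for Ccl19 (fibroblasts) with Ccr7 (macrophages), and for Cxcl12 (fibroblasts) with Cxcr4 (macrophages). The lead of T cells in Cxcr3 rests on 6 UMIs in library 2 (65.3 ± 92.4 CPM) and was not tested, while Cxcr3 was called higher in macrophages in all 3 libraries. Their lead in Cxcr6 (261 ± 370 CPM, with no UMI in T cells of library 1) was not tested either. Within macrophages, 38 of 42 Ccr7 UMIs lay in the 20 cells of the dendritic gate. Unclassed cells, which were left out of this order, held 42.4% of all Cxcr6 UMIs and 38.5% of all Ccr7 UMIs. The order rests on means, and fibroblasts, with 2 libraries in the mean, lay within 1 SD of endothelial cells in Cxcl12 (921 ± 455 and 677 ± 260 CPM).

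Several ligands had a receptor that was hardly seen. In 7 pairs the ligand was a member and the receptor was not: Ccl5, Ccl11 and Ccl24 with Ccr3 (0 UMIs in the whole matrix), Ccl17 and Ccl22 with Ccr4 (3), Ccl8 with Ccr8 (1) and Cxcl13 with Cxcr5 (1). Cxcr2, the receptor of Cxcl1, Cxcl2 and Cxcl5, had 13 UMIs in all, 7 of them in 7 neurons (1.25, 0.541 and 0.325 CPM) and 1 in oligodendrocytes. Ccr10, with 10 UMIs, and Ccr9, with 20, were the other members nearest the limit; Ccr9, highest by the mean in fibroblasts, had 7 UMIs in 7 mural cells, 50.9, 9.06 and 22.2 CPM, and 0 in 4615 neurons. Just below the limit lay Ccr6 with 5 UMIs and Ccr4 with 3, and 15 of the 59 genes had 0. With counts this low, a receptor not seen in a class may be absent there or below what this depth can detect. These values cannot tell the cases apart.

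Chemokine genes lie in clusters, and neighbours could have different leading classes. All 36 members were found by Ensembl ID in GENCODE M21 on GRCm38, the mouse build named mm10 in the submitters' processing notes; 13 lie on chromosome 11, 7 on chromosome 5 and 5 on chromosome 9. Of 13 neighbouring pairs of members under 100000 bases apart, 4 had the same leading class and 9 had different ones. These leads are by mean CPM, and several are not separated: Cxcl2 did not differ between macrophages and microglia beyond its error (-0.11, adjusted p = 0.966), Ccl8 was 1047 ± 1192 CPM in macrophages and 693 ± 55.3 in fibroblasts, which were higher in library 1, and Cxcl9 was 166 ± 113 CPM in macrophages and 125 ± 78.3 in mural cells. On chromosome 11, Ccl2 (chr11:82035571-82037453, plus strand) and Ccl7 led in fibroblasts, Ccl11, 10297 bases on, in mural cells, Ccl12 in microglia and Ccl8, 11784 bases beyond Ccl12, in macrophages. On chromosome 5, Cxcl9 and Cxcl10, 18558 bases apart, led in macrophages and astrocytes, and Cxcl1 and Cxcl2, 10755 bases apart, in mural cells and microglia. Same-class neighbours were Ccl2 with Ccl7, Ccl9 with Ccl6, Ccl3 with Ccl4 and Ccl22 with Ccl17.

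The 250 bases before the start of 3 such pairs are shown because each pair holds neighbours whose highest mean was in different classes, with the limits above for Cxcl2, Ccl8 and Cxcl9; they are from RefSeq on GRCm38.p6, 5′ to 3′ on the gene's strand. They lie at chr5:92348890-92349139, minus strand (Cxcl10), chr5:92328080-92328329, minus strand (Cxcl9), chr5:90890995-90891244, plus strand (Cxcl1), chr5:90903649-90903898, plus strand (Cxcl2), chr11:82101595-82101844, plus strand (Ccl12) and chr11:82114935-82115184, plus strand (Ccl8). Capitals mark matches, on either strand, to 4 motifs: the kappaB motif (GGGA, any 2 bases, TTCC), the interferon-stimulated response element (GAAA, any 2 bases, GAAA), the AP-1 motif TGANTCA and the TATA box letters TATAAA.
Cxcl10: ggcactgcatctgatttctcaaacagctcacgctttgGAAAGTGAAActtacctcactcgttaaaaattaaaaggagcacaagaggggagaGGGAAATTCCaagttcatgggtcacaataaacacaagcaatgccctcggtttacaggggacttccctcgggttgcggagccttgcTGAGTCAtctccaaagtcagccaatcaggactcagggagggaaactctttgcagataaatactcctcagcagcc
Cxcl9: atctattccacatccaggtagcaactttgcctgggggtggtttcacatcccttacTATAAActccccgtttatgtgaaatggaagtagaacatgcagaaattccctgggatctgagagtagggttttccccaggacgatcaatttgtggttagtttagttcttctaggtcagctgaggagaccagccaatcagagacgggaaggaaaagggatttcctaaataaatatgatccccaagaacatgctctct
Cxcl1: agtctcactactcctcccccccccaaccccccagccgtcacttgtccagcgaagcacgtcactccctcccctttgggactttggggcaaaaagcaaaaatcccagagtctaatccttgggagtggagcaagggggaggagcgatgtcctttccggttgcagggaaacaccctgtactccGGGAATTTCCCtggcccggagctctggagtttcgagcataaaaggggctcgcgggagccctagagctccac
Cxcl2: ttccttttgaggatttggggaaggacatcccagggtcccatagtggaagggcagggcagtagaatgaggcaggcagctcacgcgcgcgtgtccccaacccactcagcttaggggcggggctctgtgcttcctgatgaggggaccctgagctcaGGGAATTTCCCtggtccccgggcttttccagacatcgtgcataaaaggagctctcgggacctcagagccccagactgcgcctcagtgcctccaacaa
Ccl12: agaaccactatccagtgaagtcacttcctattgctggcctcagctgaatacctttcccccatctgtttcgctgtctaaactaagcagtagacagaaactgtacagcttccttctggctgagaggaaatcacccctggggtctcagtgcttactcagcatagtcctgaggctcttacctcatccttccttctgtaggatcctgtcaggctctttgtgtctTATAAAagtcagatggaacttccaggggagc
Ccl8: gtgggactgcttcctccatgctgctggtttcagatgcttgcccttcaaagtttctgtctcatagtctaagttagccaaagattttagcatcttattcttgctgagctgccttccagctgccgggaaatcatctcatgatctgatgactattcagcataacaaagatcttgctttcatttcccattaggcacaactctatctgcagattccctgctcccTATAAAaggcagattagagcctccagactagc

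The Cxcl10 window held 3 of the 4 motifs, the interferon element 213 to 204 bases, the kappaB motif 159 to 150 bases and the AP-1 motif 74 to 68 bases before the start, while the Cxcl9 window held only TATAAA, 195 to 190 bases before it. Cxcl1 and Cxcl2 each held 1 kappaB site that reads on both strands (2 overlapping matches), 71 to 61 and 97 to 87 bases before the start. Ccl12 and Ccl8 each held TATAAA, 31 to 26 and 32 to 27 bases before it, and none of the other 3. Of 32851 promoters of the same length, 1.21% held the kappaB motif, 2.98% the interferon element, 6.75% the AP-1 motif and 12.4% TATAAA. A promoter was found for 25 of the 36 members, of which 3 held the kappaB motif (Cxcl1, Cxcl2, Cxcl10), 3 the interferon element (Ccl19, Cxcl10, Cxcl14), 3 AP-1 (Ccl27a, Ccl9, Cxcl10) and 7 TATAAA. A match is a run of letters, not a site of binding.

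Other genes of the chemokine system were measured in the same classes. Cx3cl1, the membrane-bound chemokine of neurons, had 932, 680.5 and 907 CPM in neurons (log2 fold change 4.03 with an SE of 0.41, edgeR adjusted p = 0.000123), and its receptor Cx3cr1 had 1331, 1238 and 1365 CPM in microglia (log2 fold change 7.40 with an SE of 0.51, edgeR adjusted p = 2.46e-06). Ackr1, a decoy receptor of venules, had 341, 595 and 154 CPM in endothelial cells (log2 fold change 3.06 with an SE of 0.38, edgeR adjusted p = 0.000132) and 81.1, 71.3 and 93.0 in neurons. Ackr3, the scavenger of Cxcl12, had 0, 154 and 163 CPM in mural cells. Macrophages carried Pf4, the chemokine Cxcl4 (log2 fold change 6.75 with an SE of 0.61, edgeR adjusted p = 4.82e-05), and Xcr1, a receptor of conventional dendritic cells, with 13.2, 54.2 and 258 CPM (log2 fold change 8.58 with an SE of 0.56, edgeR adjusted p = 1.36e-05). Its ligand Xcl1 had 12 UMIs in T cells and 0 in macrophages. Of 24 listed genes of this kind, 9 of 15 tested were higher and 3 lower in microglia, 10 and 4 of 15 in macrophages, 4 and 6 of 12 in endothelial cells, and 1 and 12 of 15 in neurons. Over all genes, the shares called higher and lower were 14.4% and 16.9% in microglia, 14.9% and 17.3% in macrophages, 19.6% and 26.7% in endothelial cells, and 31% and 34.6% in neurons. Cd74 in this list is also a macrophage gate marker.

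Receptor signalling and leukocyte adhesion genes (32 listed) were higher in 19 of 22 tested in microglia and 20 of 24 in macrophages, with medians of 3.82 and 2.83 beside -0.30 over all genes in both. Examples in microglia were the selectin ligand Selplg (7.06, SE 0.41, adjusted p = 6.78e-07) and the integrin Itgam (7.20, SE 0.54, adjusted p = 2.84e-06). In endothelial cells 6 of 17 were higher and 7 lower (all genes: 19.6% and 26.7%); Icam2 (7.42, SE 0.38, adjusted p = 3.66e-07) and Vcam1 (2.67, SE 0.24, adjusted p = 1.56e-05), which hold leukocytes to the vessel wall, were among the higher. NF-kB target and activation genes (16 listed) were higher in 13 of 15 tested in microglia, 12 of 14 in macrophages and 7 of 11 in endothelial cells, with Il1a (7.56, SE 0.49, adjusted p = 1.17e-06) and Nfkbia (3.54, SE 0.31, adjusted p = 6.7e-06) as examples in microglia. Interferon response genes (16 listed, all tested) were higher in all 16 in endothelial cells, 15 in astrocytes, 10 in macrophages, 9 in oligodendrocytes and 8 in microglia and in mural cells, and lower in all 16 in neurons. Over all genes 24.9% were higher in astrocytes, 26.3% in oligodendrocytes and 11.7% in mural cells, and 34.6% were lower in neurons. Their summed level was lower in library 1 than in libraries 2 and 3 in each of these 7 classes, from 76.1 CPM against 454 and 285 in neurons to 2378 against 4103 and 4695 in endothelial cells.

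The scaling moved fold changes of some classes as a whole. With DESeq2's size factors in place of TMM, the median log2 fold change of all genes went from -0.30 to -0.65 in microglia, from -0.30 to -0.59 in macrophages, from -0.20 to -0.42 in mural cells and from -1.15 to -1.27 in T cells, with smaller shifts in the other classes. With those size factors 98 of the 99 calls of members kept their direction and their call; the exception was Ccl19 in mural cells. The higher and lower counts of members became 19 and 3 in macrophages (Ccl27a, Cxcl12 and Cxcl14 lower) and 4 and 3 in mural cells. Over all genes, those of microglia went from 1520 and 1775 to 1273 and 2712, of macrophages from 1551 and 1802 to 1330 and 2521, of mural cells from 1219 and 1704 to 1044 and 2196, and of T cells from 110 and 17 to 141 and 71.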

How the data were processed

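Single cells of 3 mouse nucleus accumbens samples were sequenced with 10x Genomics 3′ v2 chemistry. The authors deposited raw UMI counts per gene and cell in 1 matrix; Cell Ranger 3.0 and the build mm10 are named per the submitters' processing notes, and the annotation release is not given in the sources used here. Cells below 300 detected genes or above 20% mitochondrial UMIs were dropped, and the highest Scrublet scores were removed at 0.8% per 1000 cells, since the automatic threshold was judged not to have worked. Classes came from marker gates: at least 3 of 10 markers and 2 times the next list. Neuron kinds needed 2 of 6 markers.

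Counts were summed per class and library where a library had at least 10 cells, and tested with edgeR 4.0.16 (quasi-likelihood, TMM, robust, legacy off, filterByExpr, library as block, Benjamini-Hochberg over all genes, threshold 0.05) in R 4.3.3. The robust and legacy settings were set with results in view. DESeq2 1.42.0 was an alternative. Shares were thinned to 1000 UMIs per cell; intervals are exact at 95% and, like floors of 3 counts, cover counting error only. Fits were tested on simulated data. Members called in a comparison are named; so are up to 8 raised genes of largest fold, called and moved alike in both libraries, from the Cxcl14 comparison, and up to 4 examples per list by adjusted p. Slc5a7, Ackr3 and Xcl1 were added after their values were seen. The members, lists, pairs and markers were chosen with earlier results of these data known. The deposited column suffix names the library, which pairs both arms of each test because they share the library. Counts cover all members and genes, of which some are not reported here by name or value.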

Additional observations from a re-analysis of the deposited data

How the results depend on the processing

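Of 99 calls of members, all 99 were the same with the package-default prior, 98 of 99 with DESeq2's size factors, 91 of 99 with DESeq2, 94 of 99 without the low-count filter, 93 of 99 without the replicate block, 79 of 87 refitted with only cells of at least 1000 UMIs, 98 of 98 with at least 2 markers, 88 of 91 with at least 4, 95 of 98 with doublets kept and 75 of 82 without the 5 highest cells, which was added once results were known. That alternative takes cells only from the class itself, so a call of lower could hardly fail it. With it 20 members in place of 24 passed the filter in macrophages, and 13 in place of 18 in mural cells. Members called higher went from 12 to 9 in microglia, 19 to 14 in macrophages, 5 to 1 in mural cells and 5 to 3 in astrocytes. They went from 3 to 2 in endothelial cells and 1 to 0 in fibroblasts, and stayed at 1 in T cells and neurons. Over all genes, those called higher went from 1520 to 1522 in microglia, 1551 to 1563 in macrophages and 1219 to 1132 in mural cells. Astrocytes stayed at 2723, and endothelial cells went from 2053 to 2055. Fibroblasts went from 36 to 35, T cells from 110 to 112 and neurons from 3870 to 3868. Leaving out a library kept 79 of 96 (library 1), 41 of 89 (library 2) and 55 of 98 (library 3); Ccl19 in mural cells ranged from -0.32, reversed, without library 2 to 3.92 without library 1. No gene at all was called in microglia without library 2 or library 3, or in macrophages without library 2. The cause of these losses was not tested, except that only 2 libraries then remain.

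Counts of members called higher moved as follows. T cells had 2 without the filter, 2 with at least 2 markers and 0 with doublets kept, beside 67, 457 and 64 of all genes (110 in the main fit). Mural cells had 2 with at least 1000 UMIs and 1 without the 5 highest cells, beside 489 and 1132 of all genes (1219 in the main fit). Fibroblasts had 4 with DESeq2's size factors, 6 with DESeq2, 2 without the filter, 5 with the default prior, 3 without the replicate block, 4 with at least 2 markers, and 0 with doublets kept or without the 5 highest cells. In the same order, 111, 237, 48, 170, 111, 79, 28 and 35 of all genes were called higher in fibroblasts, and 36 in the main fit. Astrocytes had 3 with DESeq2, without the filter, with at least 1000 UMIs and without the 5 highest cells, beside 2187, 2791, 2617 and 2723 of all genes (2723 in the main fit). Macrophages above microglia had 7 without the filter and 1 with at least 1000 UMIs, beside 123 and 67 of all genes (138 in the main fit). Genes called between neurons with and without Cxcl14 were 6 with DESeq2, 4 without the filter, 104 with the default prior, 0 without the replicate block and 49 with UMIs matched. Cxcl14 in D2 neurons was -1.03 with DESeq2 and -1.17 without the replicate block, both past no threshold.

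Without 1 library in turn, members called higher ranged from 0 to 11 in microglia, 0 to 18 in macrophages, 1 to 3 in endothelial cells, 0 to 4 in mural cells, 2 to 5 in astrocytes, 0 to 0 in oligodendrocytes and 1 to 1 in neurons, and from 0 to 5 for macrophages above microglia and 1 to 4 for microglia above macrophages. Where microglia or macrophages had 0 members called against the rest, 0 of all genes were called. Over all genes, without library 1, 2 and 3, 885, 0 and 0 were higher in microglia and 642, 0 and 466 in macrophages. Endothelial cells had 1589, 1318 and 1165, mural cells 877, 27 and 173 and astrocytes 2710, 1982 and 1716. Oligodendrocytes had 2885, 2140 and 1512 and neurons 3912, 3858 and 2765. Macrophages above microglia had 155, 15 and 49, and microglia above macrophages 207, 15 and 47. The log2 fold change of Cxcl14 ranged from -0.033 to 0.36 in D1, -1.96 to -0.044 in D2, -1.70 to -0.28 in glutamatergic and -0.89 to 1.69 in Pvalb neurons. Cxcl14 in glutamatergic neurons against all other neurons passed the threshold without library 1 (-1.09). In that fit 11 members were tested and 1 was called lower and 1, Ccl17, higher, beside 942 and 1187 of all 10445 genes. T cells, fibroblasts and neurons with Cxcl14 already rest on 2 libraries, and Sst-Npy and Vip-Cck neurons were not run. Without the replicate block the library pairing of the 2 arms is dropped: 13 members were called higher in microglia, 19 in macrophages, 1 in T cells, 3 in endothelial cells, 4 in mural cells, 5 in astrocytes, 0 in oligodendrocytes and 1 in neurons. In the same order, 1482, 1532, 95, 1802, 1054, 2303, 2377 and 3530 of all genes were called higher. Thinning to 1000 UMIs left 29 shares the same and moved 7. Counts limit what can be said of members with few UMIs, such as Ccr10 (10), Cxcr2 (13), Ccr9 (20) and Cxcl13 (31).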
